A study of Mus musculus with 5 samples.

Results

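The cells described here were a set of fibroblast-type cells from the liver of chow-fed mice, selected on measured UMI counts (unique molecular identifiers, 1 for each captured mRNA molecule). Of the 668 cells of the VitA-Col1a1+ chow library, 462 (69.2%, exact binomial 95% interval 65.5 to 72.6) had at least 2000 UMIs, a UMI of 4 or more of the 8 genes Eln, Dpt, Clec3b, Pi16, Mfap4, Mfap5, Entpd2 and Cd34, and no UMI of Pecam1 or Ptprc. They are called members below. The series held 24007 cells in 5 libraries. The comparison cells were the 64 cells of the same library with at least 2000 UMIs and 1 or none of the 8 genes, and the other 121 cells over that minimum met neither definition.

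The mice were male Rosa26mTmG;Col1a1-Cre animals on the C57BL/6J background, in which Cre driven by the Col1a1 promoter switches a reporter to GFP, so the label Col1a1+ marks cells in which that promoter had been active. Non-parenchymal liver cells were sorted on GFP and on the autofluorescence of stored vitamin A (VitA). The chow mice had received saline at 2 weeks of age and are listed with a chow diet of 5 months from 6 weeks of age. The DEN+WAD mice had received the liver carcinogen diethyl nitrosamine at 10 mg/kg at 2 weeks and, from 6 weeks, a liquid Western diet with 3.5% ethanol for 5 months. Each group was 1 library, so no value below has a replicate error, no p-value is given, and whether a library pooled animals is not given in the sources used here. All intervals cover counting error only.

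Portal fibroblasts lie in the connective tissue around the portal vein and bile ducts, where they make elastic fibres and fibrillar collagen. Hepatic stellate cells are the other collagen-making cell of the liver, sit along the sinusoids and store vitamin A as retinyl ester through the enzyme Lrat. Both types can turn into myofibroblasts in injured liver, and the study asked which of these mesenchymal cells carry Cyp1b1, a cytochrome P450 that can make oxylipins.

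The promoters of Dpt, the rule gene for dermatopontin of the collagen matrix, and of Cyp1b1, the gene the study followed, are shown because the members were chosen partly on the first and held most of the library's UMIs of the second. Each is the RefSeq window from 250 bases before to 50 after the gene's start, of build GRCm38.p6. Dpt lies on the plus strand at chr1:164796413-164796712, with the TATAAA motif in capitals, and Cyp1b1 on the minus strand at chr17:79715012-79715311, with the motif GCGTG, the core that the aryl hydrocarbon receptor binds, in capitals on either strand.
Dpt: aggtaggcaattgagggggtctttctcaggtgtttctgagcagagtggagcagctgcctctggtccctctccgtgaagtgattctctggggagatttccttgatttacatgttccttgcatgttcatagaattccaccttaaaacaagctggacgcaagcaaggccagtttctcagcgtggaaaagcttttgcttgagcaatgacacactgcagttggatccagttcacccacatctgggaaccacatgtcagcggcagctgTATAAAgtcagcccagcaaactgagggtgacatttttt
Cyp1b1: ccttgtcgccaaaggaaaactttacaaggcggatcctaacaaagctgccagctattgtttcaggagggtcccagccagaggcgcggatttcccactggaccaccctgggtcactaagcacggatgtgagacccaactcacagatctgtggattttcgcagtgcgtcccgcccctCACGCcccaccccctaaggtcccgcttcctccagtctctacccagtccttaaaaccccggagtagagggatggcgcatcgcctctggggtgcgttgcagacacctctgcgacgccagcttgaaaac
TATAAA was found on either strand in 13.6% of 32851 promoters and GCGTG in 32.4%. Of the 20 leading genes named below, 15 had promoters in the table, 17 in all, of which 6 held TATAAA and 7 held GCGTG. A match describes the letters and is no evidence of binding.

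The total of the library was 14996899 UMIs, and the members held 74.7% of them at a median of 23626.5 UMIs per cell, against 17695.5 in the comparison cells. Across the 5 libraries the number of cells ran from 259 to 10481 and the median UMIs per cell from 9105.5 to 24077. The chow library shared 1 barcode with VitA-Col1a1+ DEN+WAD, 5 with VitA+Col1a1+ DEN+WAD and 1 with VitA-Col1a1- DEN+WAD. Mitochondrial genes took 3.0% of the members' UMIs and 3.63% of those of the comparison cells. No doublet caller was run.

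**Figure D1:**
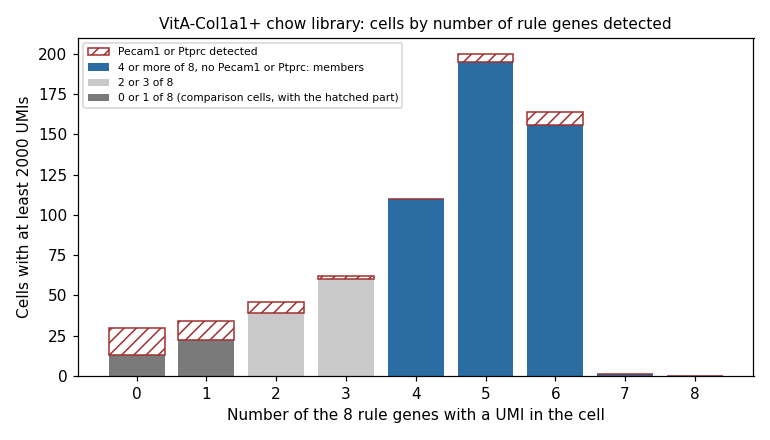
Number of cells of the VitA-Col1a1+ chow library with at least 2000 UMIs (vertical axis) by how many of the 8 rule genes had a UMI (horizontal axis). The members, in blue, had mostly 5 or 6 of the genes (195 and 156 cells), and the hatched parts had a UMI of Pecam1 or Ptprc.

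The rule rested on 6 of its 8 genes. Among the genes named here, Eln lies at chr5:134702593-134747323, Mgp at chr6:136872435-136875823, Fbln2 at chr6:91212455-91272540 and Lrat at chr3:82892579-82903973 (GRCm38), all annotated as protein coding. Dpt stood at 2785 counts per 1000000 UMIs (CPM, from UMIs summed over the cells) in the members, Mfap4 at 683, Clec3b at 559, Eln, the elastin gene, at 523, Cd34 at 111 and Entpd2, an ectonucleotidase, at 34.4. Mfap5 had 56 UMIs in 14 of the 462 members and Pi16, a marker of adventitial fibroblasts, 2 UMIs in 1 member. These genes chose the cells, so their levels are a description. Just inside the limit, the 110 members with 4 genes had 2099 CPM of Dpt, 347 of Mfap4 and 136 of Sfrp1. Just outside it, the 60 cells with 3 genes and no Pecam1 or Ptprc had 613, 56.0 and 50.3.

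The label was checked on genes the rule did not use. Of 22 other fibroblast genes, 13 of the 17 compared were at least 2-fold higher in the members than in the comparison cells, where 9.06% of all 8822 compared genes were, and 2 were at least 2-fold lower, where 13.1% of all genes were. Gsn stood at 7535 CPM against 455, Col15a1 at 73.4 against 0 UMIs, Igfbp6 at 45.6 against 0 UMIs, and Fbln2, which the study used as a portal fibroblast marker, at 41.0 against 12.3. At full depth 21.2% of the members and 3.12% of the comparison cells had a UMI of Fbln2. After thinning the same cells to 2000 UMIs the shares were 4.11% (2.49 to 6.35) and 3.12% (0.381 to 10.8). With the rule itself applied to thinned cells the log2 ratio of Fbln2 was -0.87. That setting left 134 members and let full-depth members fall among the comparison cells, so it changed the groups as well as the depth. Thy1, another marker of the study, stood at 29.8 CPM against 8.81. Markers of adventitial fibroblasts were mostly missing, with 0 UMIs of Dpp4 and Ly6c1 and 11 UMIs of Slpi. The stellate cell markers were not absent: Lrat stood at 323 CPM, Colec11 at 1153 and Cygb at 989. The members, chosen partly on Dpt and Mfap4, were therefore Gsn-high cells that carried stellate markers too. The term "portal fibroblast" is used here only as the name of the rule.

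What the comparison cells were bears on every ratio. Of the 64 cells, 29 had a UMI of Pecam1, and the 8 compared endothelial markers were all at least 2-fold lower in the members. The 9 listed endothelial markers summed to 41.0 CPM there against 6622 in the comparison cells. The 12 genes lowest in the members were Dnase1l3, Aqp1, Clec4g, Kdr, Fcgr2b, Mrc1, Gpihbp1, Stab1, Cldn5, Ptprb, Stab2 and Gpr182, genes known from liver sinusoidal endothelium. Clec4g, for example, stood at 1.34 CPM in the members against 1479. The members were therefore also set against the 35 comparison cells without Pecam1 and Ptprc and, as a choice made after the values were seen, against the 219 comparison cells of the VitA+Col1a1+ chow library, a gate in which Lrat stood at 1932 CPM. Cholangiocyte markers summed to 27.0 CPM in the members against 969, hepatocyte markers to 2.05 against 178 and mesothelial markers to 18.9 against 10.6. Immune markers summed to 56.5 against 53.8, with 6 of 11 at 0 UMIs in the members and 9 of 11 in the comparison cells.

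The genes that led the members' profile came from the extracellular matrix, from signalling inhibitors and from complement. Mgp, a matrix protein that blocks calcification, stood at 2877 CPM (2846 to 2908) in the members and 22.0 (14.3 to 32.5) in the comparison cells, a log2 ratio of 7.03 (6.47 to 7.66), which was 2.64 when the rule was applied to cells thinned to 2000 UMIs. Sfrp1, a secreted inhibitor of Wnt signals, stood at 621 CPM against 1.76, and Fmod, a collagen-binding proteoglycan, at 509 against 0.881, with 1 UMI in the comparison cells. Fbln1, of the elastic fibre, stood at 600 CPM against 2.64, and C7, a component of the terminal complement complex, at 278 against 0.881. Dpep1, a membrane dipeptidase, stood at 651 CPM against 1.76. Ptgs2, the inducible cyclooxygenase, stood at 119 CPM where the comparison cells had 0 UMIs. Its ratio was 44.9 when 3 UMIs are put for their 0, and the lower 95% limit from the counts was 36.5. Ltbp2, of the microfibrils, stood at 101 CPM against 0 UMIs. Other leading genes, chosen by the same fixed rule, were Fmo2, Vegfd, Cilp, C3, Cyp2e1, Ackr3, Smoc1, Col6a6, F3, Abca8a and Adamtsl1.

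**Figure D2:**
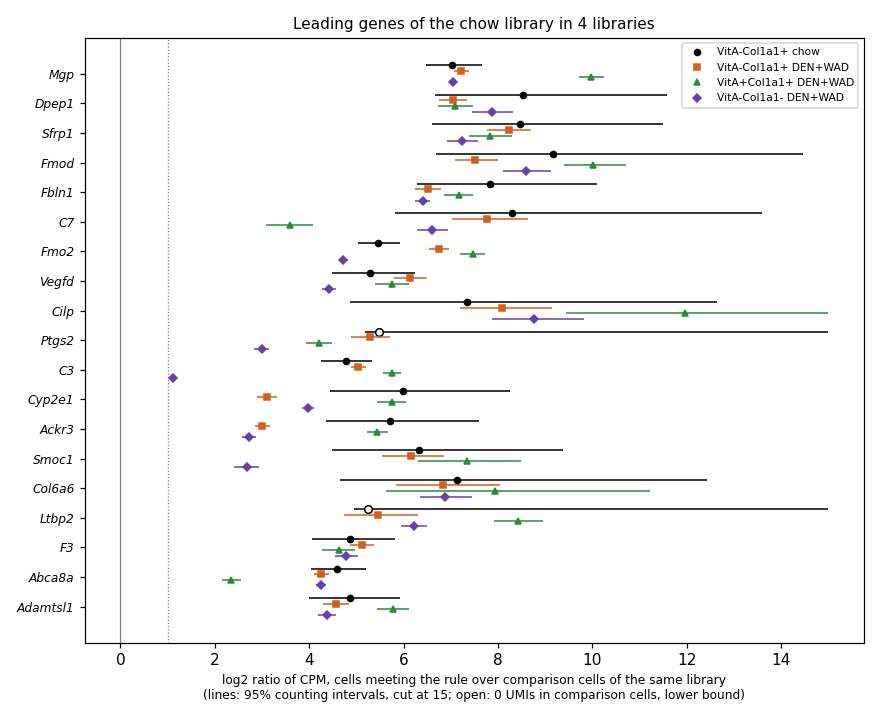
log2 ratio of CPM in cells meeting the rule to comparison cells of the same library (horizontal axis) for leading genes of the chow library (rows) in 4 libraries (colours), with 95% counting intervals as lines and open symbols where the comparison cells had 0 UMIs. Every point lies to the right of the dotted line at a 2-fold difference, the lowest being C3 in VitA-Col1a1- DEN+WAD at 1.11.

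The same genes were read in the libraries that had no part in their choice. VitA-Col1a1+ DEN+WAD held 656 cells meeting the rule and 1121 comparison cells, VitA+Col1a1+ DEN+WAD 85 and 9091, and VitA-Col1a1- DEN+WAD 857 and 5680. At least 2-fold higher in the cells meeting the rule were 20 of 20 compared genes in the first, where 6.49% of all compared genes were, 18 of 18 in the second, where 5.41% were, and 20 of 20 in the third, where 9.19% were. In the second, Smoc1 and Col6a6 lay below the level needed to be compared, at 14.0 CPM against 0.0864 and 3.87 against 0.0157, the latter from 8 and 2 UMIs. The median log2 ratios over the 20 genes were 6.29, 7.13 and 5.28. Mgp stood at 3005, 978 and 2795 CPM in the cells meeting the rule and at 20.2, 0.974 and 21.1 in the comparison cells. C3, which other liver cells also make, was nearest to level, at 355 against 164 CPM in the VitA-Col1a1- library. The VitA+Col1a1+ chow library held 0 cells meeting the rule among 259, which allows a share of up to 1.41%, and so gave no such reading. Against its 219 comparison cells the same 462 members, whose levels had chosen the 20 genes, were at least 2-fold higher for all 20, where 9.6% of all genes were, which is a description only.

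Matrix genes were higher in the members as a group. Of all compared genes 9.06% were at least 2-fold higher and 13.1% at least 2-fold lower. Of 18 collagen chains 13 were at least 2-fold higher and 1, Col13a1, lower, with a median log2 ratio of 1.87 where that of all compared genes was -0.12. Col1a1 stood at 2104 CPM against 177, Col3a1 at 3250 against 666 and Col6a3 at 723 against 81.1, whereas the basement membrane chain Col4a1 stood at 829 against 677. Of 16 compared genes of the elastic fibre 10 were higher and none lower. Fbln5 stood at 1811 CPM against 133 and the cross-linking enzyme Loxl1 at 352 against 16.7, while Emilin1 stood at 355 against 382. Of 17 matrix proteases and their inhibitors 14 were higher and none lower, among them Mmp2 at 221 CPM against 21.2, Mmp3 at 89.0 against 0 UMIs and Timp1 at 78.2 against 5.29. Among 8 small leucine-rich proteoglycans Fmod, Ogn, Podn and Lum were higher, and Dcn stood at 7924 CPM against 7540.

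Against other comparison cells some of these counts fell. Against the 35 cells without Pecam1 and Ptprc, 9 of 17 collagen chains and 8 of 16 elastic fibre genes were at least 2-fold higher, where 8.02% of all genes were higher and 6.37% lower. In that comparison 1 elastic fibre gene was lower. Against the 219 cells of the VitA+Col1a1+ gate the counts were 11 of 16 and 9 of 16, where 9.6% of all genes were higher. There 1 elastic fibre gene and 13 of 15 stellate markers were lower, where 7.24% of all genes were. Lrat was 323 CPM in the members against 1932 there, Reln 32.9 against 1873 and Colec10 9.01 against 2336. Dcn, level in the first comparison, stood at 22192 CPM in those cells, and Col14a1 at 1873 CPM in the members against 2513.

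Secreted signals differed by family, and the counts are to be read against the 9.06% of all compared genes that were higher and the 13.1% that were lower. Of 10 compared complement genes 8 were higher in the members and 2 lower, C4b standing at 764 CPM against 67.0. The complement count was 5 of 9 higher and 1 lower against the 35 comparison cells without Pecam1 and Ptprc, and 3 of 10 higher and 2 lower against the VitA+Col1a1+ chow cells. Of 16 growth factors 12 were higher and 2 lower, the latter near the share of all genes, and against the other comparison cells 7 and 10 of 16 were higher. Gas6, a ligand of the receptor Axl, stood at 2192 CPM against 271, Igf1 at 175 against 14.1 and Vegfd at 411 against 10.6, while Hgf stood at 98.1 against 261. Cxcl12 stood at 4123 CPM against 1590 and was level with the VitA+Col1a1+ comparison cells, which had 4646. Wnt5a stood at 70.1 CPM against 1.76, and Rspo3, which amplifies Wnt signals, at 40.0 against 381. Of 15 compared genes of TGF-beta and BMP signalling 6 were higher and 5 lower, with Gdf10 at 535 CPM against 54.6 and Bmp2 at 55.1 against 1462, the latter a gene that sinusoidal endothelium makes. The 10 contractile genes showed no 2-fold difference in either direction, with Acta2 at 1061 CPM against 958. Against the 35 comparison cells without Pecam1 and Ptprc 2 of them were lower, and against the VitA+Col1a1+ cells 8 were higher, Acta2 standing at 5.43 CPM there.

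Most stellate markers were lower in the members. Of 15 such markers 9 were lower and 1, Cygb, higher, with a median log2 ratio of -1.68, where 13.1% of all compared genes were lower and 9.06% higher. Of 8 compared retinoid genes 1 was higher and 2 lower. Lrat stood at 323 CPM against 626, under 2-fold, and Cyp26b1, which breaks down retinoic acid, at 5.89 against 301, whereas Aldh1a1, which makes it, stood at 222 against 94.3. Of 19 compared transcription factors 4 were higher and 4 lower, and of 17 immediate-early and heat-shock genes 2 were higher and 5 lower, of which the 2 lie near the share of all genes. Examples were Gata6 at 229 CPM against 92.5 and Lhx2, a factor of stellate cells, at 29.0 against 122. The heat-shock gene Hspa1a stood at 286 CPM against 2222.

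**Figure D3:**
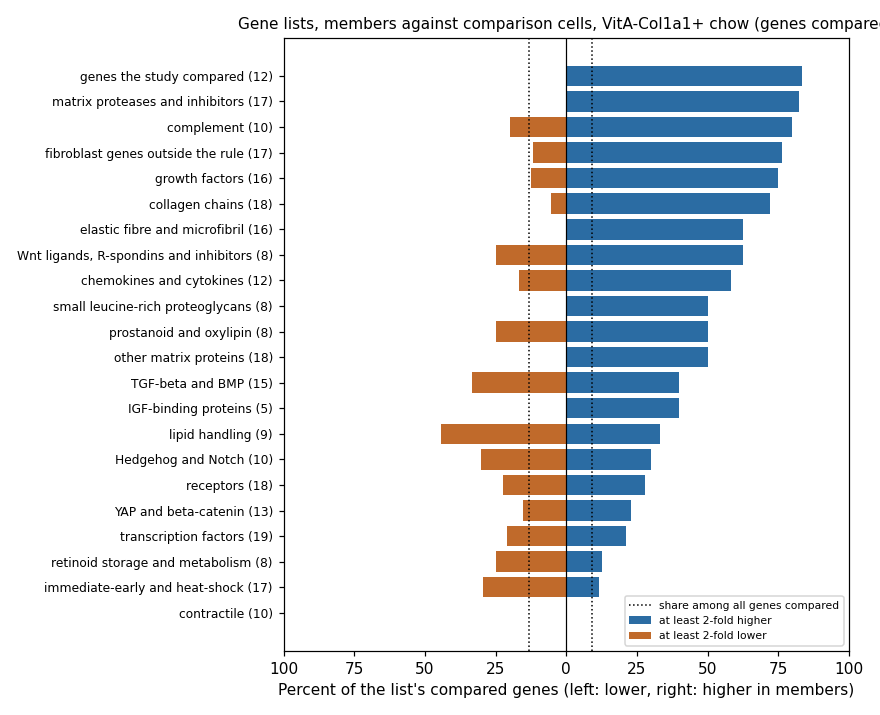
Percent of the compared genes of each list (number in brackets) at least 2-fold higher (right, blue) or lower (left, orange) in members than in comparison cells of the VitA-Col1a1+ chow library, with dotted lines at the shares of all compared genes, 9.06% and 13.1%. Matrix proteases, complement and growth factors stand far to the right of the line, and the contractile list has no bar.

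Most of the Cyp1b1 UMIs of this library lay in the members. They held 928 of its 1023 UMIs (90.7%, 88.8 to 92.4), where they held 74.7% of all UMIs, and it stood at 82.8 CPM against 2.64, from 3 UMIs, in the comparison cells, a ratio of 31.3 (log2 interval 3.42 to 7.25). With the rule applied to thinned cells, which changed both groups, the log2 ratio was 1.22 in place of 4.97. Cells just outside the rule carried Cyp1b1 too. Those with 3 and 2 rule genes and no Pecam1 or Ptprc had 34.9 and 20.1 CPM, and members with 4, 5 and 6 had 45.0, 99.0 and 85.2. The 219 cells of the VitA+Col1a1+ chow gate had 0 UMIs. With every cell thinned to 2000 UMIs, 14.1% of the members (11.0 to 17.6) and 1.56% of the comparison cells had a UMI of Cyp1b1, and at full depth 59.1% and 3.12%, against 0 of the 29 comparison cells with Pecam1, whose median depth was 17372 UMIs. In the cells meeting the rule of VitA-Col1a1+, VitA+Col1a1+ and VitA-Col1a1- DEN+WAD it stood at 77.4, 70.1 and 106 CPM, and in their comparison cells at 12.3, 2.36 and 4.94. Ptgis, the prostacyclin synthase, stood at 261 CPM in the members, a log2 ratio of 4.12, and Ptges at 51.0 against 1.76. Ptgs1 stood at 5.80 against 132, but 25 of the 26 comparison cells with a UMI of it had Pecam1, and the 35 cells without Pecam1 and Ptprc had 1 UMI. Both Cyp1a1 and Tbxas1, other P450 genes, had 0 UMIs in the members.

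Of 12 compared genes that the study had singled out, partly on these libraries, 10 were higher in the members and none lower, where 9.06% and 13.1% of all compared genes were, and given that choice the count is not independent evidence of their direction. Against the 35 comparison cells without Pecam1 and Ptprc it was 7, with 1 lower, Lrat, where 8.02% and 6.37% were. Fbln2 stood at 41.0 CPM against 22.8 and Thy1 at 29.8 against 16.3 there, both under 2-fold, while Gas6 stood at 2192 against 135 and Cyp1b1 at 82.8 against 4.89.

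The members were not alike among themselves. The 46 members highest in a gene held 21.4% of the UMIs of Dpt and 23.5% of those of Fmo2, but 76.3% of those of Acta2, 83.5% of those of Fbln2 and 86.3% of those of Ptgs2. Fbln2 had no UMI in 364 of the 462 members, Acta2 none in 226 and Mgp none in 88. Mgp ranged from 0 CPM at the tenth percentile of the members through 1616 at the median to 8402 at the ninetieth, and Dpt from 921 through 2705 to 4678.

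**Figure D4:**
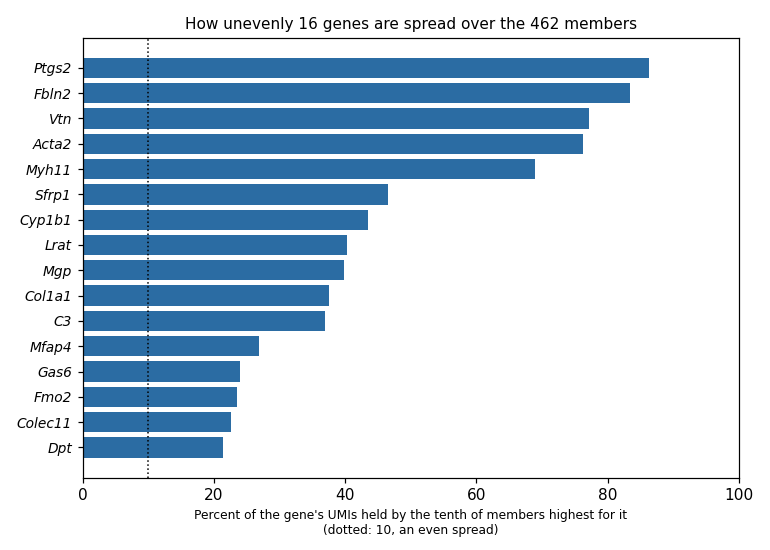
Percent of a gene's UMIs held by the 46 members highest for it (horizontal axis), for 16 genes, with a dotted line at 10. Dpt, Colec11 and Fmo2 lie lowest, at 21.4, 22.5 and 23.5, and Ptgs2 and Fbln2 highest, at 86.3 and 83.5.

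Levels moved with the number of rule genes detected, and so did depth. Members with 4, 5 and 6 of the genes had medians of 20617.5, 24008 and 25524 UMIs per cell, and Sfrp1, which was not a rule gene, stood at 136, 558 and 947 CPM in them. Lrat stood at 437, 360 and 222 CPM over the same classes and Acta2 at 2140, 786 and 799. The part of depth in these steps was not tested. Cells that missed the rule continued the series, with Lrat at 525 CPM in cells with 3 of the genes and 1443 in the 13 cells with none of them and no Pecam1 or Ptprc. Thinned to 2000 UMIs, 134 of 647 cells met the rule (20.7%, 17.7 to 24.0).

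Acta2, the smooth muscle actin, marked a range of the members. The 89 members at or above 1000 CPM of Acta2, of which 15 lay under 1250 CPM, had 1737 CPM of Myh11, a smooth muscle myosin, against 101 in the 373 others, and 802 CPM of Vtn against 56.4. They had less Mgp, 1114 against 3281 CPM, less Sfrp1, 155 against 727, and less C7, 23.9 against 336. Col1a1 stood at 2730 against 1960 and Cyp1b1 at 33.0 against 94.2. The limit is on a single gene chosen after the values were seen and marks a range, not a cell type.

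Most members had a UMI of Lrat: 365 of the 462, with a median of 24199 UMIs per cell, against 97 without, at 21911. Of the 8409 genes compared 0.785% were at least 2-fold higher and 1.37% at least 2-fold lower in the first. Among 14 stellate markers, Lrat itself included, 6 were higher and none lower, and among 10 contractile genes none were higher and 5 lower. Of 17 other fibroblast genes 6 were lower and none higher. Cholangiocyte markers summed to 1.33 CPM in the Lrat-positive members against 132 in the others, and immune markers to 66.2 against 16.8, with both compared markers higher. The part of such cells or RNA in the split was not tested. Cyp1b1 differed little, with a log2 ratio of -0.06, and so did Dpt at -0.04.

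The 98 members with a UMI of Fbln2 were deeper than the 364 without, at medians of 26302.5 and 22950 UMIs, and 0.951% of 8414 compared genes were at least 2-fold higher and 0.891% lower in them. Of 10 contractile genes 7 were lower and none higher, and of 16 other fibroblast genes, Fbln2 itself included, 4 were higher and none lower. Cholangiocyte markers summed to 106 CPM in the first and 1.19 in the second, and Cd74, of immune cells, had a log2 ratio of 5.69. The part of such cells or RNA in the split was not tested. Cyp1b1 had a log2 ratio of 0.81. By the 3 genes of the study, Cyp1b1 stood at 135 CPM (116 to 156) in the 50 Lrat+ Thy1- Fbln2+ members, 63.9 (57.0 to 71.5) in the 206 Lrat+ Thy1- Fbln2- members and 74.4 in the 41 with none of the 3. It stood at its highest level in the 7 Lrat- Thy1+ Fbln2+ members, at 208 CPM (156 to 272) from 53 UMIs in 4 cells. The interval of the Lrat+ Thy1- Fbln2+ members lies above that of the Lrat+ Thy1- Fbln2- members. The other pairs that differed only in Fbln2 were uneven. Fbln2+ against Fbln2- members stood at 92.6 against 85.3 CPM among Lrat+ Thy1+ cells and 77.1 against 74.4 among Lrat- Thy1- cells. Among Lrat- Thy1+ cells they stood at 208 against 59.5. The intervals leave out the spread between cells, and cells of 1 library are not replicates.

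The cells meeting the rule in DEN+WAD differed little from the chow members over most gene lists. They were 656 of 2729 cells (24.0%) in the same gate, against 69.2% in chow, and with all cells thinned to 2000 UMIs before the rule was applied 6.79% against 20.7% of the cells over the minimum. At least 2-fold higher were 83 of 8343 genes (0.995%) and at least 2-fold lower 121 (1.45%). None of 17 collagen chains and none of 17 matrix proteases and inhibitors differed by 2-fold, which lies near those shares of all genes. Of the 13 genes the study had compared 1 differed by 2-fold. It was Scd2, a desaturase that makes monounsaturated fatty acids, at 38.2 CPM against 105. Cyp1b1 stood at 77.4 CPM against 82.8, a log2 ratio of -0.10 (-0.22 to 0.03), Gas6 at 2209 against 2192 and Col1a1 at 1872 against 2104.

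The genes that differed most between the treatments were of other kinds. The class I genes H2-Q6 and H2-Q7, of antigen presentation, stood at 102 CPM in DEN+WAD against 11.6 in chow and at 343 against 62.7, and 580 of the 656 DEN+WAD cells had a UMI of H2-Q7 against 201 of the 462 members. The gene with the largest ratio, Cxcl9, a chemokine induced by interferon gamma, rested on 1 cell: it stood at 99.8 CPM against 1.61, but 1312 of its 1459 UMIs in DEN+WAD came from a single cell and 22 cells had any. Without cells over 2 times the median UMIs its log2 ratio was 1.70 in place of 5.96. Of 15 stellate markers 5 were at least 2-fold higher and none lower, with Reln at 159 against 32.9 CPM and Colec10 at 44.7 against 9.01, while Lrat stood at 174 against 323. Hepatocyte markers summed to 12.7 CPM in DEN+WAD against 2.05 in chow, endothelial markers to 54.8 against 41.0, with Clec4g at 7.52 against 1.34, and cholangiocyte markers to 5.81 against 27.0, and their part in the differences was not tested. Fcna and Angptl4 were higher too, at 111 against 5.44 and 109 against 18.2, as were Gdf2 and Tmem56. Of 10 contractile genes 4 were at least 2-fold lower, with Myh11 at 86.9 against 406 CPM, Cnn1 at 7.45 against 69.2 and Actg2 at 19.0 against 96.9, and Syn3, Hist1h4d, Igfbp5 and Kcnk3 were lower as well. Among cells under 1000 CPM of Acta2 in both libraries 86 genes were higher and 108 lower, and the log2 ratio of Myh11 was -1.38 in place of -2.23. Heat-shock genes Hspa1a and Hspa1b stood at 1127 and 1096 CPM against 286 and 293, and AY036118 and Lars2 at 205 and 143 against 2512 and 757. Heat-shock genes can move with cell isolation, and the part of isolation in these differences was not tested. Library and treatment cannot be told apart.

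**Figure D5:**
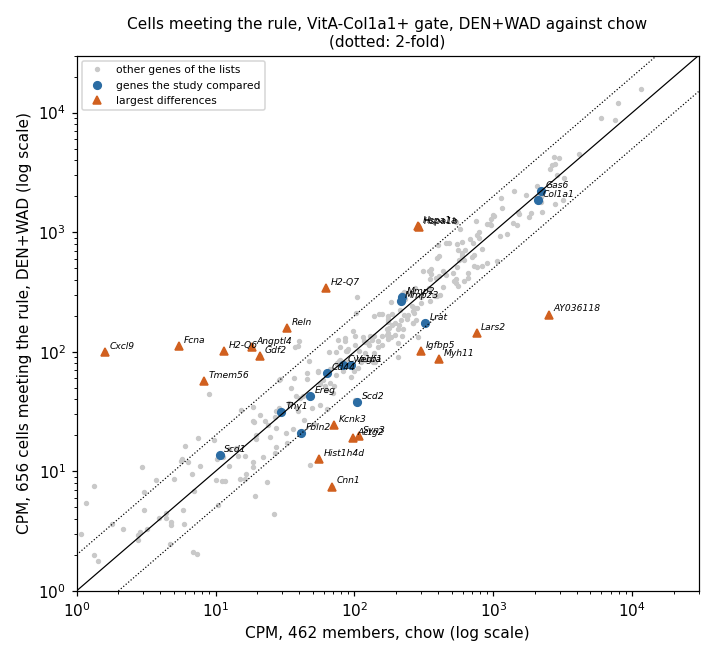
CPM in the 656 cells meeting the rule of VitA-Col1a1+ DEN+WAD (vertical axis, log scale) against the 462 members of chow (horizontal axis, log scale), with dotted lines at 2-fold. The genes the study compared, in blue, lie between the lines except Scd2, and Cxcl9, most of whose UMIs came from 1 cell, lies farthest above them.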

How the data were processed

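The authors sorted the cells, made 10x Genomics 3' libraries and deposited 1 matrix of UMI counts per gene and cell for each library, from Cell Ranger 3.1.0 or, for VitA-Col1a1- DEN+WAD, 6.1.2 per the submitters' processing notes. The labels name 2 versions of the kit. UMIs were summed over the cells of each group and divided by all UMIs of those cells (CPM). A gene was compared when the mean of both CPM was at least 10 and called at 2-fold. Poisson intervals for levels, conditional binomial intervals for ratios and Clopper-Pearson intervals for shares are at 95%. A count of 0 was set to 3 UMIs. The ratio script was tested on simulated data. Named genes were those with the largest ratios after 5 CPM were added, at 50 CPM or more (20 higher and 12 lower in the members, 10 each way for DEN+WAD), and members of the gene lists; a few of them are not reported here. Members and lists were chosen with earlier results of these data known. Python 3.11.15, numpy 2.4.6, scipy 1.17.1, pandas 2.3.3, R 4.3.3 and edgeR 4.0.16 (TMM factors only) were used.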

Additional observations from a re-analysis of the deposited data

How the results depend on the processing

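Thinning cells to 2000 UMIs before applying the rule changed both groups, since full-depth members could fall among the comparison cells. It left 134 members, 331 genes higher and 625 lower than in comparison cells (799 and 1160 as reported) and 182 higher in Lrat-positive members (66). It gave thinned shares of 17.9% for Cyp1b1 and 24.6% for Lrat. It moved 66 of 78 gene ratios, among them Mgp from 7.03 to 2.64 and Cyp1b1 from 4.97 to 1.22, left 9 about the same and turned the log2 ratios of Fbln2 (-0.87), Scd1 (-0.33) and Scd2 (-0.10). The genes lower were 540 against comparison cells without Pecam1 and Ptprc, where Ptprb turned to 0.65, and 612 against VitA+Col1a1+ chow cells. A minimum of 50 CPM gave 310 higher and 428 lower, and 37 and 38 between DEN+WAD and chow; no minimum gave 1485, 3075, 866 and 1293. Shares at full depth were 59.1% (Cyp1b1), 79.0% (Lrat) and 21.2% (Fbln2). Between DEN+WAD and chow, small ratios turned: Thy1 -0.18 and Gas6 -0.20 with 3 or more rule genes, Scd1 -0.0089 and Cd44 -0.064 with 5 or more, Thy1 -0.0041 and Cd44 -0.044 without cells over 2 times the median UMIs, Thy1 -0.084 by the mean over cells, Cyp1b1 0.010 with TMM factors, and Gas6 -0.052 and Cd44 -0.041 under 1000 CPM of Acta2. The cause was not tested. The VitA+Col1a1+ comparison, the Acta2 limit, the Fbln2 split and the expected thinned share were chosen after seeing the data. The split by Pi16 was not run, since 1 member had a UMI of it. No paired analysis was possible because each group was 1 library.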
